A study of Mus musculus with 22 samples.

Results

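The mitochondrial ribosomal protein genes are those whose array symbol begins with Mrpl or Mrps followed by a number, and they were followed here across colon tumours of mice kept on 4 regimens. The rule found 76 genes among the 19505 named genes of the array, 48 of them named for the large subunit (Mrpl) and 28 for the small subunit (Mrps). Each was measured by 1 probe set, a group of short probes read together as 1 level, and none of these shared its values with another probe set. The 76 genes are called members below. The rule used the symbols and no measured value.

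All tumours were induced with azoxymethane, a colon carcinogen, in male mice of the inbred strain FVB/N, and all groups share that exposure. The formerly obese group held 5 mice that were switched from a high-fat to a low-fat diet and had no sulindac. The obese sulindac group held 6 mice on the high-fat diet (60% of calories from fat) given sulindac, an anti-inflammatory drug of the NSAID class and a cyclooxygenase inhibitor. The obese group held 5 mice on the high-fat diet without sulindac, and the control group held 6 mice on a low-fat diet (10% of calories from fat) without sulindac. Both obese groups are titled DIO in the labels, and their names here follow the title of the series. Each of the 22 arrays holds RNA from the colon tumour tissue of 1 mouse, called a tumour below, and the labels do not say whether several tumours of a mouse were pooled. The titles number the mice, apart from an obese sulindac mouse titled Mouse_X. The labels used here give no age, dose, time on diet or tumour stage, and no group of normal colon was analysed here.

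Mitochondria keep their own ribosomes, which translate the few proteins that mitochondrial DNA encodes, all of them subunits of the respiratory chain and the ATP synthase. The proteins of these ribosomes are encoded in the nucleus, made in the cytosol and imported. Some descend from the ribosomal proteins of bacteria and carry the bacterial numbers, and others were added during the evolution of mitochondria. By that numbering 43 members have a bacterial number (up to 36 in the large and 21 in the small subunit) and 33 a mitochondria-specific one. The transcription factors NRF1, GABPA (of the ETS family), YY1 and Myc are known activators of nuclear genes for mitochondrial proteins.

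The labelled tissue was checked against cell type markers. All 10 epithelial markers on the list were measured, and their means over the 22 tumours ran from 9.52 for Cdx2 to 17.62 for Cdh1 on the log2 scale. Array medians lay between 6.67 and 6.83. In single tumours Cdx2 ran from 5.92 to 13.64. Some markers of other cell types also had means above the array medians, such as Dcn of fibroblasts (15.90) and Acta2 of smooth muscle (15.17). Others had means below them, such as Adipoq of adipocytes (4.28). The members' means lay between 6.22 and 14.12, but levels of different probe sets depend on their probes and set no order between genes. On every array 68 of the 76 members lay above that array's median. These are whole tumours, so fewer cells of a type and less RNA per cell cannot be told apart.

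Promoter windows from RefSeq (assembly GRCm38.p6, 250 bases before to 50 after an annotated start) were matched to 67 of the members by gene identifier. The NRF1 motif GCGCATGC, searched on both strands, was found in the windows of 8 of them (11.9%), against 4.1% of the 15691 array genes with a window and 2.71% of all 32851 windows. A site that reads as the motif on both strands was counted once. The stretches of 40 bases around the first site of each are given because these are the members that share a motif of a known activator of mitochondrial genes. The motif or its reverse complement is in capitals, and each stretch is written 5′ to 3′ along its gene.
Mrpl9: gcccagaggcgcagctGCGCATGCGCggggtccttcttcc
Mrpl10: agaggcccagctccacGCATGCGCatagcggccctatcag
Mrpl17: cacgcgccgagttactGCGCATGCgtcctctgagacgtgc
Mrpl22: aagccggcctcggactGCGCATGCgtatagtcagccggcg
Mrpl32: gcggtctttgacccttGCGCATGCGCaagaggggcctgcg
Mrpl33: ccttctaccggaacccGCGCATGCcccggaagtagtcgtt
Mrpl39: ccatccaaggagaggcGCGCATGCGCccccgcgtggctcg
Mrps18b: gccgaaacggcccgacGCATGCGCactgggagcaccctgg
The sites began at -28 from the annotated start in Mrpl9, -134 in Mrpl10, -11 in Mrpl17, -33 in Mrpl22, -87 in Mrpl32, -12 in Mrpl33, -125 in Mrpl39 and -223 in Mrps18b. The Mrpl9, Mrpl32 and Mrpl39 sites extend to a run that reads as the motif on both strands. The stretches lie at chr3:94443292-94443331 on the plus strand (Mrpl9), chr11:97041432-97041471 on the plus strand (Mrpl10), chr7:105811075-105811114 on the minus strand (Mrpl17), chr11:58171615-58171654 on the plus strand (Mrpl22), chr13:14613101-14613140 on the minus strand (Mrpl32), chr5:31613923-31613962 on the plus strand (Mrpl33), chr16:84735346-84735385 on the minus strand (Mrpl39) and chr17:35916640-35916679 on the minus strand (Mrps18b). A match is a description of letters and not evidence of binding.

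The other motifs were also searched on both strands. The ETS motif CCGGAAG stood in the windows of 25 members (37.3%), against 13.2% of array genes and 8.86% of all windows. The YY1 motif AAGATGGCG stood in those of 8 members (11.9%), against 2.23% of array genes and 1.4% of all windows. The E-box CACGTG, a motif that Myc can bind, stood in those of 5 members (7.46%), against 9.26% of array genes and 7.15% of all windows. Of the 67 members, 35 held at least 1 of the NRF1, ETS and YY1 motifs and 32 held none of them, and 6 (Mrpl17, Mrpl22, Mrpl33, Mrps18a, Mrps18b and Mrps27) held more than 1. The whole windows of Mrpl10, the member with the smallest p between formerly obese and obese tumours, and of the paralogs Mrps18a and Mrps18b are given with all matches to these motifs in capitals.
Mrpl10: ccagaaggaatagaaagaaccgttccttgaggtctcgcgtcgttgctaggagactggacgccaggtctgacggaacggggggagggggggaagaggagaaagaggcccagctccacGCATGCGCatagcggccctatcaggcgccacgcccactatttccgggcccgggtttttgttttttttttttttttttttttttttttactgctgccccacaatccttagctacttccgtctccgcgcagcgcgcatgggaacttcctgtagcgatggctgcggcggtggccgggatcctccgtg
Mrps18a: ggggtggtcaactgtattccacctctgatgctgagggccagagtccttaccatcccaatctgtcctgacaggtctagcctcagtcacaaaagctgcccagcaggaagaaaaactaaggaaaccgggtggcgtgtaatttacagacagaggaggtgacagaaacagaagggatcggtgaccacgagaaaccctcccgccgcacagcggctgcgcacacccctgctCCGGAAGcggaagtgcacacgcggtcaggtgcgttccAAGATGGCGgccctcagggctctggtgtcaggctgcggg
Mrps18b: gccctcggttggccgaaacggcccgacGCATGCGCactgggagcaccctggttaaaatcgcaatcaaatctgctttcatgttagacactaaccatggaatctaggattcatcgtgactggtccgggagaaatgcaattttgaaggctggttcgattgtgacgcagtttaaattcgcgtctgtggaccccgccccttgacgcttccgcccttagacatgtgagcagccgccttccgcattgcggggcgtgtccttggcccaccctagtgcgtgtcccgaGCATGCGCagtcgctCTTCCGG
The windows lie at chr11:97041332-97041631 on the plus strand (Mrpl10), chr17:46110754-46111053 on the plus strand (Mrps18a) and chr17:35916391-35916690 on the minus strand (Mrps18b), each written 5′ to 3′ along its gene. Mrpl10 held the NRF1 motif alone, Mrps18a an ETS and a YY1 motif, and Mrps18b the NRF1 motif at 2 places and an ETS motif. The window of the third paralog, Mrps18c, held an ETS motif and an E-box, and that of Mrpl12 held none of the 4 motifs.

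Many members start back to back with another gene. A start on the other strand, facing away and within 1000 bases, was annotated for 26 of the 67 members (38.8%), against 13.8% of the 15691 array genes. Several of these partners act in mitochondria or in protein making and turnover. Mrps11 and Mrpl46 start 42 bases from each other, Mrps12 starts 147 bases from Sars2, the mitochondrial seryl-tRNA synthetase, and Mrpl43 starts 116 bases from Twnk, the mitochondrial DNA helicase. Mrpl47 starts 308 bases from the complex I gene Ndufb5, Mrps27 starts 108 bases from Ptcd2, Mrpl32 starts 205 bases from the proteasome gene Psma2, and Mrpl49 starts 192 bases from Fau, which encodes a cytosolic ribosomal protein. For 23 of these members the partner was measured, and after removal of the group means their levels over the 22 tumours correlated with a median r of 0.156. The lowest was -0.25 (Mrpl18 with the chaperonin gene Tcp1) and the highest 0.546 (Mrpl49 with Fau). Mrps11 and Mrpl46 had an r of -0.20, and this pair is counted for each of them. Of the 23, 17 were positive. No such correlation was computed over back-to-back pairs of other genes.

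The mean log2 level of the 76 members differed little between regimens. It averaged 10.08 ± 0.10 in formerly obese tumours (SD, n = 5), 10.09 ± 0.12 in obese sulindac tumours (n = 6), 10.05 ± 0.014 in obese tumours (n = 5) and 10.10 ± 0.11 in control tumours (n = 6). The formerly obese tumours ranged from 9.98 to 10.23, the obese sulindac tumours from 9.91 to 10.21, the obese tumours from 10.03 to 10.06 and the control tumours from 9.98 to 10.28. The obese range lay within that of each other group. The lowest of all was Mouse_X and the highest control Mouse_27. The 48 Mrpl members and the 28 Mrps members, split by symbol alone, had the same lowest and highest tumours in 3 groups. These were Mouse_134 and Mouse_152 among formerly obese, Mouse_X and Mouse_124 among obese sulindac, and Mouse_20 and Mouse_27 among control tumours. In the narrow obese range the sets differed. Mouse_113 was lowest and Mouse_109 highest for the Mrpl members, and Mouse_109 lowest and Mouse_96 highest for the Mrps members.

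**Figure D1:**
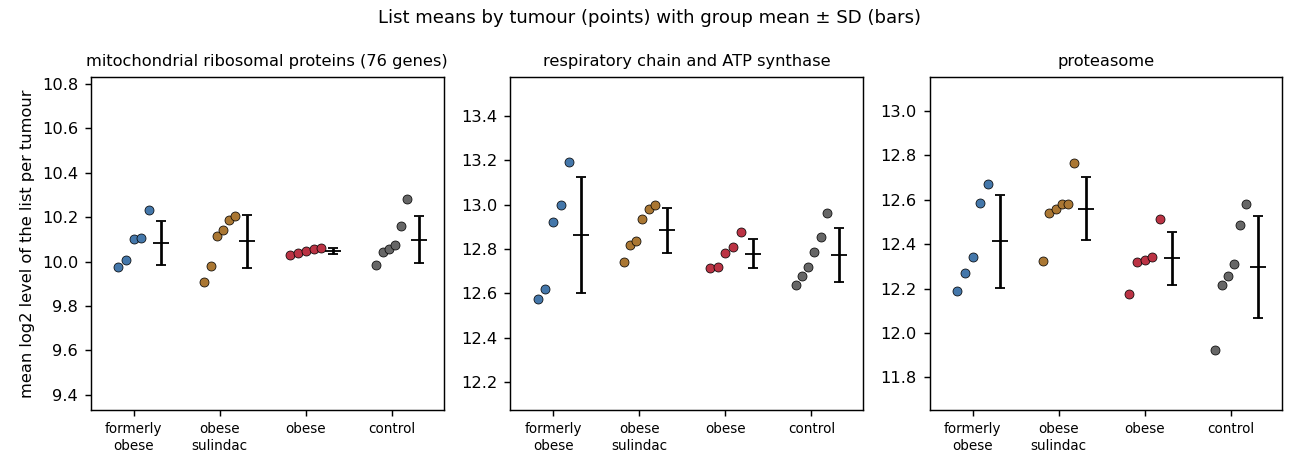
Mean log2 level per tumour of the 76 mitochondrial ribosomal protein genes (left), of the respiratory chain and ATP synthase genes (middle) and of the proteasome genes (right), by group, with the group mean ± SD as bars and axes of equal span. The 5 obese tumours lie between 10.03 and 10.06 on the left, inside the ranges of the other groups.

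Single members varied moderately. The SD of a member within groups had a median of 0.305 log2 units (lowest 0.191, highest 0.505), against 0.348 over all 22203 probe sets. The most variable members were Mrpl12 (SD 0.505), Mrpl27 (0.49), Mrps5 (0.45), Mrpl23 (0.44) and Mrps26 (0.43). The least variable were Mrpl36 (0.19), Mrpl42 (0.19) and Mrps36 (0.20). The median SD of the members was 0.318 in formerly obese, 0.28 in obese sulindac, 0.231 in obese and 0.272 in control tumours, and over all probe sets it was 0.348, 0.335, 0.301 and 0.331 in the same order of groups.

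Differences between regimens were tested with limma over all 22203 probe sets. In each of the 6 pairwise comparisons 0 members passed at an adjusted p under 0.05, and 0% of all probe sets did so. None of the members differed by more than 1 log2 unit in any of them. Over all probe sets that share ran from 0.74% (obese against control) to 1.87% (formerly obese against obese). An F test over the 4 groups also called 0 members, with the smallest adjusted p at 0.798 (Mrpl49). For this test the count over all probe sets at the adjusted threshold was not made. At an unadjusted p under 0.05 that test took 3 members (Mrpl30, Mrpl37 and Mrpl49), where 6.004% of all probe sets passed.

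The comparison of formerly obese with obese tumours asks what switching to the low-fat diet went with. Of the 76 members 44 lay higher and 32 lower in formerly obese tumours, with a median difference of 0.03 log2 units (0.00 over all probe sets). At an unadjusted p under 0.05, 1 member was higher (Mrpl10; 2.77% of all probe sets) and 0 were lower (2.91%). For 0 members were the groups separate in either direction, where 0.45% of all probe sets lay wholly higher and 0.428% wholly lower. The smallest adjusted p of a member was 0.866.

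Mrpl10, which anchors the stalk that recruits translation factors to the large subunit, measured 10.35, 10.15, 10.21, 10.70 and 10.97 in formerly obese tumours of Mouse_134, Mouse_140, Mouse_146, Mouse_150 and Mouse_152, against 10.17, 9.93, 9.96, 9.96 and 9.88 in obese tumours of Mouse_96, Mouse_101, Mouse_107, Mouse_109 and Mouse_113. All but 1 of the formerly obese tumours lay above every obese tumour, with Mouse_140 just below obese Mouse_96. The difference was 0.50 log2 units (95% interval 0.07 to 0.92, adjusted p 0.866), and it was 0.37 without Mouse_152. Mrps26, a mitochondria-specific small subunit protein, measured 9.05, 9.06, 9.37, 9.41 and 9.48 in the formerly obese tumours in the same order, against 8.31, 9.54, 9.22, 8.86 and 7.93 in the obese tumours. The obese tumours of Mouse_113 and Mouse_96 were the low ones, and the groups overlapped. Its difference was 0.50 (-0.04 to 1.05, adjusted p 0.878), and 0.29 without obese Mouse_113.

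Mrpl12, the counterpart of the bacterial stalk protein L7/L12, which also binds the mitochondrial RNA polymerase, measured 13.01, 11.69, 11.83, 12.01 and 13.09 in the formerly obese tumours, against 11.67, 12.17, 11.79, 12.14 and 11.54 in the obese tumours. Mouse_134 and Mouse_152 stood above the rest, and the other formerly obese tumours lay within the obese range. Its difference of 0.46 (-0.17 to 1.10, adjusted p 0.887) was 0.29 without Mouse_134 and 0.27 without Mouse_152, and became -0.02 when Mouse_134 and Mouse_152 were left out together with control Mouse_27. The remaining members with the smallest p on the higher side were Mrpl30 with a difference of 0.30 and Mrps7 with 0.28. On the lower side they were Mrps30 (-0.36, adjusted p 0.878), Mrps35 (-0.37), Mrpl44 (-0.26), Mrps25 (-0.27) and Mrpl49 (-0.24). Without obese Mouse_96 the difference was -0.24 for Mrps35 and -0.14 for Mrpl49. Mrps30, which sits in the large subunit in spite of its name, averaged 8.97 ± 0.19 in formerly obese tumours (n = 5) and 9.33 ± 0.17 in obese tumours (SD, n = 5).

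The comparison of obese sulindac with obese tumours sets the drug against the same diet without it. Here 47 members lay higher and 29 lower in obese sulindac tumours, with a median difference of 0.06 log2 units (0.01 over all probe sets). At an unadjusted p under 0.05, 3 members were higher (Mrpl15, Mrpl30 and Mrpl57; 3.07% of all probe sets) and 2 lower (Mrps17 and Mrps25; 3.48%). For 0 members were the groups separate, where 0.347% of all probe sets lay wholly higher and 0.329% wholly lower. The smallest adjusted p of a member was 0.734 (Mrps17).

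Mrps17, a small subunit protein with a bacterial counterpart, measured 10.23, 9.76, 9.96, 10.23, 10.28 and 10.07 in obese sulindac tumours of Mouse_114, Mouse_124, Mouse_125, Mouse_129, Mouse_131 and Mouse_X, against 10.69, 10.27, 10.33, 10.04 and 11.33 in obese tumours. Obese Mouse_113 stood far above the rest, and obese Mouse_101 and Mouse_109 lay inside the sulindac range. Its difference was -0.44 (95% interval -0.84 to -0.05), and -0.24 without Mouse_113. Mrpl30, a large subunit protein, measured 8.80, 9.0, 8.92, 9.46, 9.05 and 9.05 in the sulindac tumours, against 8.67, 8.62, 8.84, 8.71 and 8.82 in the obese tumours. Only Mouse_114 among the sulindac tumours fell into the obese range. The difference was 0.31 (0.02 to 0.61, adjusted p 0.747).

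Mrpl57 averaged 10.88 ± 0.17 in obese sulindac tumours (n = 6) and 10.57 ± 0.23 in obese tumours (SD, n = 5), a difference of 0.31. Mrpl15 averaged 10.68 ± 0.35 in obese sulindac tumours and 10.31 ± 0.19 in obese tumours, a difference of 0.37 with 2 sulindac tumours (Mouse_114 and Mouse_125) at 11.08. Both belong to the large subunit. The others with the smallest p were Mrps34 (0.34) and Mrpl2 (0.32) on the higher side, and Mrps25 (-0.37), Mrpl37 (-0.32), Mrpl49 (-0.31) and Mrps33 (-0.24) on the lower side. The smallest adjusted p among these was 0.761. Without obese Mouse_113 the difference was 0.16 for Mrps34 and -0.15 for Mrps33, and without obese sulindac Mouse_X it was -0.22 for Mrps25.

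The comparison of obese with control tumours sets the high-fat diet against the low-fat diet. In obese tumours 30 members lay higher and 46 lower, with a median difference of -0.05 log2 units (0.00 over all probe sets). At an unadjusted p under 0.05, 0 members were higher (1.82% of all probe sets) and 2 were lower (Mrpl10 and Mrps26; 2.21%). For 0 members were the groups separate, where 0.149% of all probe sets lay wholly higher and 0.234% wholly lower. The smallest adjusted p of a member was 0.9998.

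Mrpl10 averaged 9.98 ± 0.11 in obese tumours (n = 5) and 10.50 ± 0.48 in control tumours (SD, n = 6). The control tumours of Mouse_17, Mouse_20, Mouse_26, Mouse_27, Mouse_30 and Mouse_32 measured 10.59, 9.86, 10.42, 11.34, 10.42 and 10.38, so that Mouse_27 stood highest and Mouse_20 lay below every obese tumour. The difference was -0.52 (95% interval -0.93 to -0.12), and -0.35 without Mouse_27. Mrps26 averaged 8.77 ± 0.66 in obese tumours and 9.33 ± 0.51 in control tumours, a difference of -0.56 (-1.08 to -0.04) that was -0.35 without obese Mouse_113 and -0.39 without control Mouse_27. These 2 members also had the largest positive differences of formerly obese from obese tumours, and both comparisons use the same 5 obese tumours.

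On the lower side followed Mrps2 (-0.31; -0.22 without Mouse_27), Mrpl57 (-0.29) and Mrpl52 (-0.33). On the higher side the smallest p-values belonged to Mrpl3 (0.23), Mrpl16 (0.27), Mrps9 (0.25), Mrps12 (0.26) and Mrps15 (0.225). The difference was 0.13 for Mrps12 without obese Mouse_96, 0.15 for Mrps9 and -0.22 for Mrpl52 without obese Mouse_101, and 0.136 for Mrps15 and 0.16 for Mrps12 without control Mouse_20. Among the 33 members with mitochondria-specific numbers 8 lay higher and 25 lower in obese tumours, with a median of -0.08. Among the 43 with bacterial numbers 22 lay higher and 21 lower, with a median of 0.02. In formerly obese against obese tumours 23 of the mitochondria-specific and 21 of the bacterially numbered members lay higher, and in obese sulindac against obese tumours 19 and 28. Neither set held a called gene, and the difference between the sets was not tested.

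**Figure D2:**
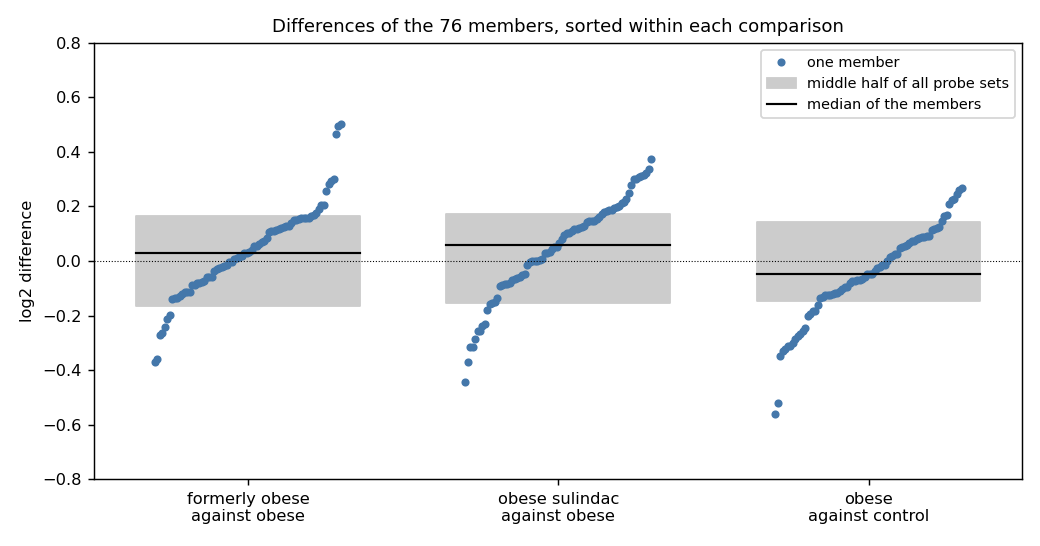
Fitted log2 difference of each of the 76 members (points, sorted within each comparison) with the members' median (line), over the range that holds the middle 50% of all 22203 probe sets (grey). The medians lie at 0.03, 0.06 and -0.05, and most members lie inside the grey range in each comparison.

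The remaining pairs of groups gave the same picture of 0 called members. Formerly obese against control tumours had a median member difference of -0.02, with 2 members higher at an unadjusted p under 0.05 (Mrpl30 and Mrpl32; 2.74% of all probe sets) and 3 lower (Mrpl49, Mrps2 and Mrps30; 2.8%). Obese sulindac against control tumours had a median of -0.01, with 3 higher (Mrpl11, Mrpl16 and Mrpl30; 3.11%) and 3 lower (Mrpl38, Mrpl49 and Mrps2; 3.52%). Obese sulindac against formerly obese tumours had a median of 0.00, with 1 higher (Mrpl16; 3.41%) and 2 lower (Mrpl37 and Mrpl38; 3.21%). The groups were separate for 0 members in formerly obese against control (0.194% of all probe sets wholly higher, 0.23% wholly lower) and in obese sulindac against control tumours (0.135% and 0.162%). In obese sulindac against formerly obese tumours 0 members lay wholly higher (0.297%) and 1 wholly lower (Mrpl37; 0.27%).

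Mrpl49, a mitochondria-specific large subunit protein, had the smallest p among members in any of the 6 comparisons. It measured 10.33, 10.34, 9.79, 9.98, 10.00 and 9.68 in obese sulindac tumours, against 10.68, 10.33, 10.88, 10.16, 10.29 and 10.77 in control tumours. Sulindac Mouse_114 and Mouse_124 lay within the control range and the other 4 below it. The difference was -0.50 (95% interval -0.83 to -0.16, adjusted p 0.613). Mrpl37 averaged 9.42 ± 0.15 in obese sulindac tumours (n = 6) and 9.89 ± 0.21 in formerly obese tumours (SD, n = 5), a difference of -0.47 (-0.79 to -0.15, adjusted p 0.6525). All 6 sulindac tumours lay at or below 9.56 and all 5 formerly obese tumours at or above 9.64.

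Mrpl16, whose bacterial counterpart lies near the site where tRNAs enter, varied least in obese sulindac tumours. It measured 8.95 to 9.13 in the 6 obese sulindac tumours (median 8.99), 8.07 to 9.04 in the 5 formerly obese tumours (median 8.73), 8.53 to 8.98 in the 5 obese tumours (median 8.89) and 8.20 to 8.98 in the 6 control tumours (median 8.535). The difference of sulindac from control tumours was 0.45 (adjusted p 0.700). Mrpl38 was 0.60 lower in obese sulindac than in control tumours, at 10.72 ± 0.54 and 11.32 ± 0.38 (SD, n = 6 each), with Mouse_X lowest of the sulindac tumours at 10.07.

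**Figure D3:**
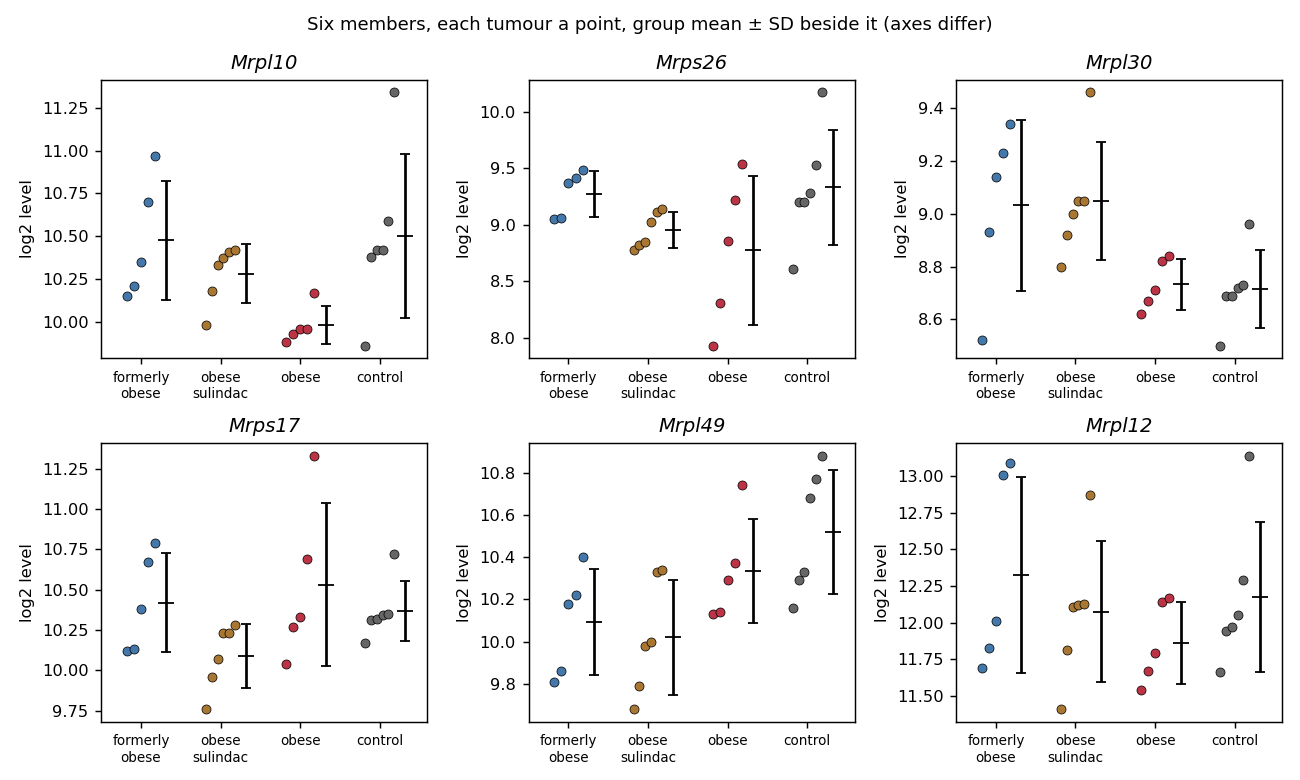
Log2 level of Mrpl10, Mrps26, Mrpl30, Mrps17, Mrpl49 and Mrpl12 in each tumour (points) with the group mean ± SD beside the points, axes differing between genes. Control Mouse_27 is the highest point for Mrpl10 (11.34), Mrps26 (10.17) and Mrpl12 (13.14), and the groups overlap for each gene in the main comparisons.

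Members with particular roles are given by group. Of the stalk proteins, Mrpl11 averaged 8.75 ± 0.39 in formerly obese, 9.14 ± 0.35 in obese sulindac, 8.84 ± 0.30 in obese and 8.69 ± 0.45 in control tumours (SD, here and in the values that follow n = 5, 6, 5 and 6 in this order of groups). Mrps12, which lies at the decoding centre of the small subunit, averaged 7.91 ± 0.39, 7.76 ± 0.38, 7.83 ± 0.30 and 7.57 ± 0.30. Mrpl58, also known as a peptidyl-tRNA hydrolase that releases stalled chains, averaged 12.21 ± 0.30, 12.34 ± 0.13, 12.19 ± 0.12 and 12.22 ± 0.54. The group means of Mrpl58 differ by less than the SD of the control tumours.

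The S18 paralogs take different places, Mrps18a in the large subunit and Mrps18b and Mrps18c in the small. Mrps18a averaged 8.42 ± 0.10, 8.53 ± 0.25, 8.41 ± 0.23 and 8.34 ± 0.35. Mrps18b averaged 9.55 ± 0.38, 9.58 ± 0.35, 9.63 ± 0.35 and 9.54 ± 0.31. Mrps18c averaged 9.45 ± 0.56, 9.68 ± 0.22, 9.58 ± 0.26 and 9.70 ± 0.22. For each paralog the group means lay closer together than the SD of its most variable group.

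Mrps36, known as a subunit that holds together the 2-oxoglutarate dehydrogenase complex rather than the ribosome, averaged 9.62 ± 0.23, 9.62 ± 0.24, 9.49 ± 0.12 and 9.51 ± 0.18. In humans, mutations in Mrpl3, Mrpl44, Mrps16 and Mrps22 cause mitochondrial disease. Mrpl3 averaged 9.48 ± 0.22, 9.64 ± 0.25, 9.61 ± 0.18 and 9.38 ± 0.17. Mrpl44 averaged 8.26 ± 0.16, 8.38 ± 0.20, 8.52 ± 0.22 and 8.50 ± 0.30. Mrps16 averaged 6.96 ± 0.27, 7.02 ± 0.42, 6.85 ± 0.36 and 6.90 ± 0.34, and Mrps22 averaged 9.76 ± 0.16, 9.70 ± 0.34, 9.61 ± 0.51 and 9.63 ± 0.39. Mrpl41 averaged 7.03 ± 0.51, 7.30 ± 0.32, 7.15 ± 0.29 and 7.15 ± 0.35, and Mrpl28 averaged 7.94 ± 0.36, 7.86 ± 0.41, 7.74 ± 0.38 and 7.66 ± 0.14.

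The members went up and down together only loosely from tumour to tumour. With the group means removed, the mean correlation over their 2850 pairs was 0.084 across the 22 tumours, against 0.001 over pairs of all probe sets, and 63.5% of the pairs were positive. Pairs of Mrpl members averaged 0.079 and pairs of Mrps members 0.078, sets split by symbol that do not follow the subunits exactly. The highest pair was Mrpl12 with Mrps7 (r = 0.887), and the lowest Mrps21 with Mrps9 (r = -0.72). Of the 76 members 65 correlated positively with the mean of the others. The highest of these were Mrpl21 (0.72), Mrpl23 (0.70), Mrps10 (0.66), Mrps23 (0.64) and Mrpl10 (0.62), and the lowest were Mrpl24 (-0.27), Mrps9 (-0.21), Mrpl22 (-0.19), Mrpl55 (-0.18) and Mrpl20 (-0.16).

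Outside the list, the gene whose residual levels followed the members' mean most closely among 19429 genes was Nme2 (r = 0.84; 0.77 without control Mouse_27 and Mouse_X, the tumours farthest from the median), a nucleoside diphosphate kinase. Next came Sdhaf1 (0.83), an assembly factor of complex II, Kars (0.80), the lysyl-tRNA synthetase of cytosol and mitochondria, Aadacl4fm1 (0.79), Mydgf (0.79), the splicing protein gene Snrpd2 (0.78), Col2a1 (0.78), Lrwd1 (0.77), Nme1 (0.76) and the prohibitin gene Phb (0.76), whose product scaffolds the mitochondrial inner membrane. The most opposed were Nptn (-0.81), Col23a1 (-0.80), Kcnj14 (-0.80), Cnksr3 (-0.79) and Pafah1b1 (-0.78). Aadacl4fm1, Col2a1 and Kcnj14 had mean levels under 5 log2 units, below the array medians.

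Summed gene lists were set beside the members in the same way, as the correlation over the 22 tumours of each list's mean with the members' mean after removal of the group means. The r was 0.67 for 38 proteasome genes, 0.56 for the 4 measured mitoribosomal genes with other symbols, 0.55 for 75 genes of the respiratory chain and ATP synthase, 0.53 for 26 mitoribosome assembly factors, 0.50 for 22 replication and mitosis genes, 0.49 for 14 mitochondrial translation factors and 0.48 for 59 cytosolic ribosomal proteins. It was 0.40 for 12 genes of mitochondrial DNA copying and transcription, 0.22 for 19 mitochondrial aminoacyl-tRNA synthetases and -0.38 for 8 regulators of mitochondrial biogenesis. Without Mouse_27 and Mouse_X the translation factors came to 0.16 and the cytosolic ribosomal proteins to 0.63. All lists share each tumour's array, so these values describe the 22 arrays.

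Markers of other cell types also moved with the members' mean. The r was -0.52 for 8 smooth muscle markers (-0.55 without the same 2 tumours), 0.52 for 7 macrophage and monocyte markers (0.36), 0.49 for 7 neutrophil markers (0.35), -0.42 for 8 goblet cell markers (-0.27), -0.34 for 9 markers of absorptive colonocytes, -0.34 for 7 of fibroblasts and -0.14 for 10 epithelial markers. It lay between -0.26 and 0.12 for adipocyte, endothelial, B and plasma cell, and T and NK cell markers. The mean of the smooth muscle markers averaged 9.49 ± 1.25 in formerly obese, 9.59 ± 0.41 in obese sulindac, 9.09 ± 0.26 in obese and 8.998 ± 0.25 in control tumours (SD). The formerly obese mean rests on Mouse_134 at 11.55: without it the mean was 8.97 ± 0.56 (n = 4), below that of the obese tumours. The absorptive colonocyte markers averaged 9.90 ± 2.31 in formerly obese, 8.83 ± 0.84 in obese sulindac, 8.01 ± 1.04 in obese and 8.497 ± 1.01 in control tumours. Of these 9 markers 9 lay higher in formerly obese than in obese tumours (median difference 1.86), 3 of them at an unadjusted limma p under 0.05 and 0 past the adjusted threshold. Of all probe sets 50.7% lay higher in that comparison, and 2.77% did so at an unadjusted p under 0.05. Mouse_134 stood at 13.83, and without it the formerly obese mean was 8.92 ± 0.84. The part of cell type content in the members' levels was not tested.

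The lists of partner pathways also held 0 called genes in the main comparisons, by limma at an adjusted p under 0.05. In obese sulindac against obese tumours, 54 of 75 respiratory chain and ATP synthase genes lay higher (median 0.13), where 51.71% of all probe sets did. At an unadjusted p under 0.05, 8 of the 75 were higher and 2 lower, in a comparison where 3.07% of all probe sets were higher and 3.48% lower. Atp5a1, the alpha subunit of the ATP synthase, averaged 17.24 ± 0.11 in obese sulindac tumours (n = 6) and 16.85 ± 0.19 in obese tumours (SD, n = 5), a difference of 0.39 with an adjusted p of 0.600. Of 38 proteasome genes 31 lay higher (median 0.19), led by Psmd8 with a difference of 0.54 (adjusted p 0.588). Of 22 replication and mitosis genes 21 lay higher (median 0.29), of 59 cytosolic ribosomal protein genes 50 (median 0.13), and all 4 mitoribosomal genes with other symbols (median 0.14).

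Not all of mitochondrial translation lay on that side. Of 14 mitochondrial translation factors 5 lay higher and 9 lower in obese sulindac than in obese tumours (median -0.06). The initiation factor gene Mtif2 averaged 10.92 ± 0.24 in obese sulindac tumours (n = 6) and 11.46 ± 0.19 in obese tumours (SD, n = 5), a difference of -0.54 with an adjusted p of 0.651. Of 12 genes of mitochondrial DNA copying and transcription 9 lay lower (median -0.19), with the exonuclease gene Mgme1 at -0.75 (adjusted p 0.698). The synthetase gene Sars2, which starts back to back with Mrps12, lay 0.59 higher (adjusted p 0.721).

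In formerly obese against obese tumours 53 of the 75 respiratory chain and ATP synthase genes lay higher (median 0.09) and 54 of the 59 cytosolic ribosomal protein genes (median 0.12). Of all probe sets 50.7% lay higher in that comparison. The elongation factor gene Tufm lay 0.50 higher and the initiation factor gene Mtif3 0.43 higher, with adjusted p-values of 0.874 and 0.872. In obese against control tumours 54 of the 59 cytosolic ribosomal protein genes lay lower (median -0.13), and all 4 mitoribosomal genes with other symbols did (median -0.15). Over all probe sets 49.07% lay higher there. Both comparisons use the same obese tumours. The difference of obese from control tumours was -0.56 for the assembly factor gene Noa1 and -0.54 for the synthetase gene Vars2, each with an adjusted p of 0.9998. The medians of the 26 assembly factors were -0.07 for formerly obese against obese, -0.03 for obese sulindac against obese and -0.05 for obese against control tumours. Those of the 19 synthetases were -0.05, -0.07 and -0.12 and those of the 8 regulators of biogenesis -0.01, -0.05 and -0.02, in the same order.

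Placing the members on the chromosomes of GRCm38.p6 showed joint departures of neighbouring genes in single tumours. All 76 could be placed, on 17 chromosomes, with 11 on chromosome 11 and 8 on chromosome 17. This comparison was added after the data had been seen. Mrpl12 and Mrps7, the most alike pair, are both on chromosome 11. Pairs of members both on chromosome 11 had a mean r of 0.223 (55 pairs), other pairs on a shared chromosome 0.093, and pairs on different chromosomes 0.080 (2670 pairs). Nme1, Nme2 and Phb, among the genes most like the members, are also on chromosome 11. So are Col23a1 and Pafah1b1, among the genes most opposed to them. The share of all genes on chromosome 11 was not computed.

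Each member was then set beside the median of the other genes that start within 5 Mb of it (mean level at least 8, at least 10 such genes, no members), with every gene taken as its deviation from its own median over the 22 tumours. In formerly obese Mouse_152 the neighbours of 8 chromosome 11 members (Mrps23, Mrpl27, Mrpl10, Mrpl45, Mrpl58, Mrpl12, Mrpl38 and Mrps7) lay 0.31 to 0.43 log2 units above their medians, and the 8 members themselves 0.13 to 1.42. In formerly obese Mouse_134 the neighbours of Mrpl58, Mrpl38 and Mrps7 lay 0.31 to 0.33 above, and these members 0.29 to 0.74. In control Mouse_27 the neighbours of the same 8 members as in Mouse_152 lay 0.58 to 0.69 above, and the members 0.60 to 1.11.

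Mrpl12 shows the pattern in single values. It stood at 13.09 in formerly obese Mouse_152 and 13.14 in control Mouse_27, against its median of 12.03. Its 85 neighbours lay 0.33 above their medians in Mouse_152 and 0.69 above in Mouse_27. Mrpl27 also stood at 12.96 in Mouse_152 and 12.36 in Mouse_27, against a median of 11.54. Mrpl20, on chromosome 4, departed the other way. Its 3 lowest tumours were formerly obese Mouse_134 at 12.03, obese sulindac Mouse_131 at 11.89 and control Mouse_27 at 11.65, against a median of 12.72. Its 35 neighbours lay at -0.70, -0.60 and -1.01 in those tumours. Members also stood high where their neighbours did not. Mrpl12 measured 12.87 in obese sulindac Mouse_124 with its neighbours at 0.02. Mrpl27 measured 12.32 in formerly obese Mouse_150 with its neighbours at -0.03.

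**Figure D4:**
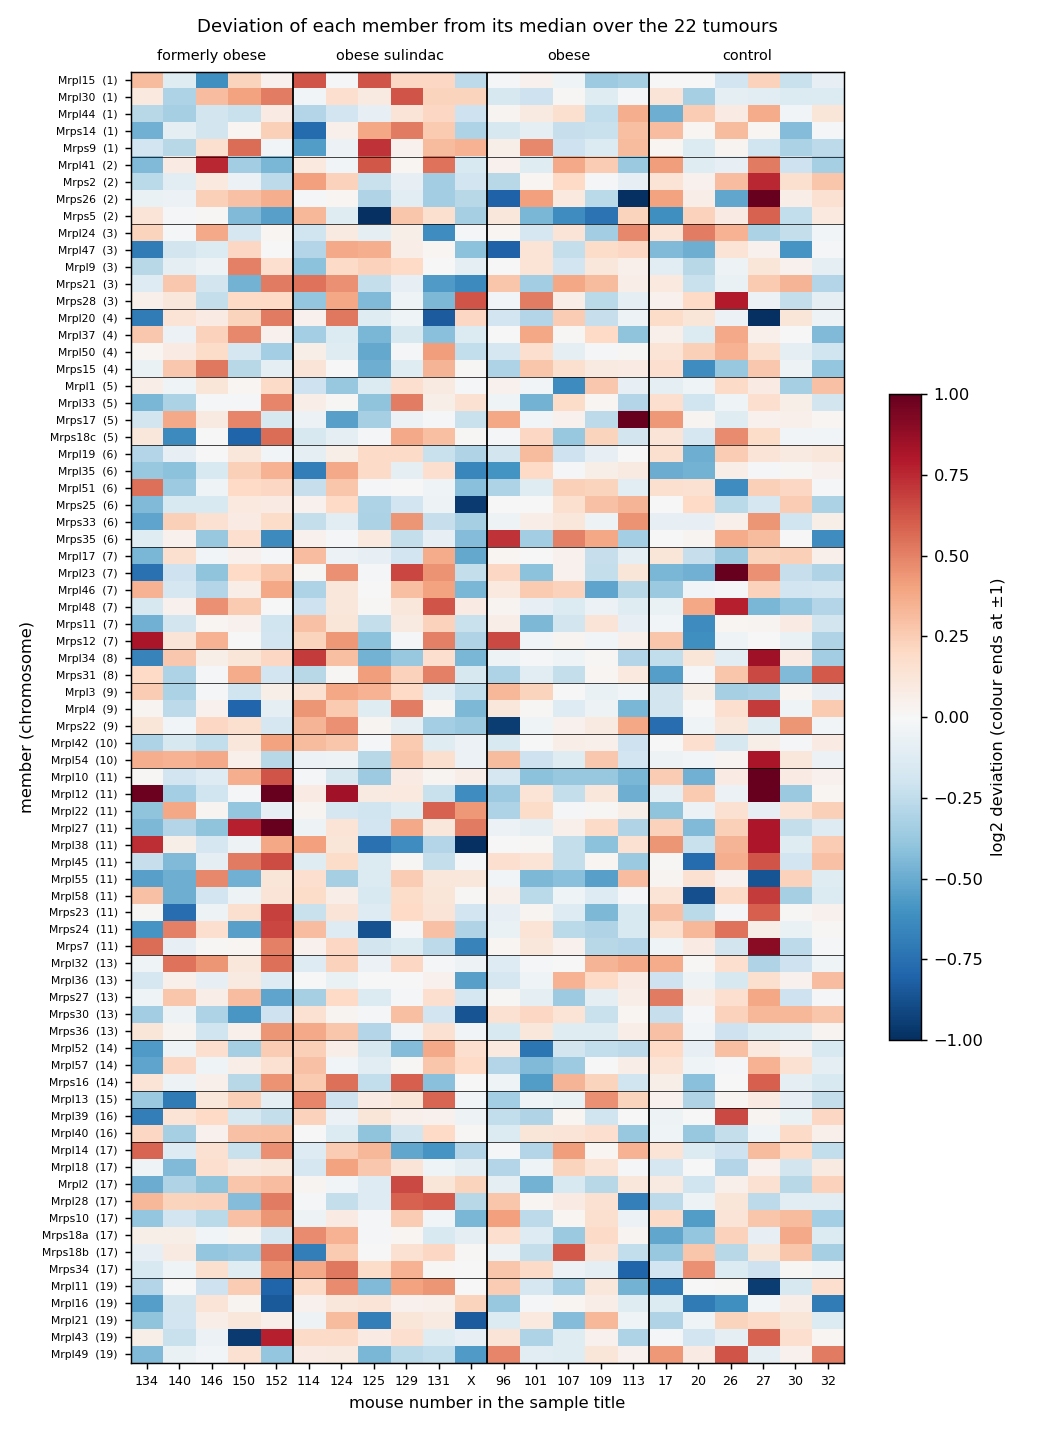
Deviation of each member (rows, with its chromosome in parentheses) from its own median over the 22 tumours (columns, by group), in log2 units, with colours ending at ±1. Of the 11 chromosome 11 members, 8 with high neighbours lie above their medians in formerly obese Mouse_152 (Mrpl58 by only 0.13) and control Mouse_27. Mrps24, not among these 8, is at 0.67 in Mouse_152 with its neighbours at -0.10, and Mrpl55 is low in Mouse_27. Mrpl20 on chromosome 4 is low in Mouse_134, Mouse_131 and Mouse_27.

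Over all members and tumours there were 33 cases in which the neighbours lay more than 0.3 above their medians. They came from 22 members and 9 tumours, and the member lay above its own median in 32 of them, by a median of 0.63 over the 33. The cases are not independent, because members near each other share neighbours and tumours. Chromosome 11 alone gave 8 cases in Mouse_152, 8 in Mouse_27 and 3 in Mouse_134. Over all 8055 genes with a mean level of at least 8 and enough neighbours, 76.6% of 2628 such cases lay above, with a median of 0.335. The members' cases had no such floor and also held Mrpl41, Mrpl46, Mrps12 and Mrps28, with means under 8. Besides chromosome 11, they included 4 chromosome 7 members in obese sulindac Mouse_131 (Mrps11, Mrpl23, Mrpl46 and Mrps12, 0.23 to 0.50) and, in Mouse_27, Mrps2, Mrps26 and Mrpl41 on chromosome 2 (0.52 to 1.04) and Mrps31 and Mrpl34 on chromosome 8 (0.66 and 0.85). The exception was Mrps18c in obese sulindac Mouse_125, at -0.01. Neighbours lay more than 0.3 below their medians in 7 cases, and the member lay below in 5 of them, with a median of -0.235. Windows of 2 Mb and 10 Mb gave 28 of 33 and 19 of 21 cases above, against 73.9% and 81.3% of such cases over all genes. The correlation of a member with its neighbours over the 22 tumours had a median of 0.181 over 75 members and 0.69 over the 11 on chromosome 11. For this correlation and for the low cases no value over all genes was computed. DNA was not measured in these samples, and the cause of the joint departures was not tested.

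**Figure D5:**
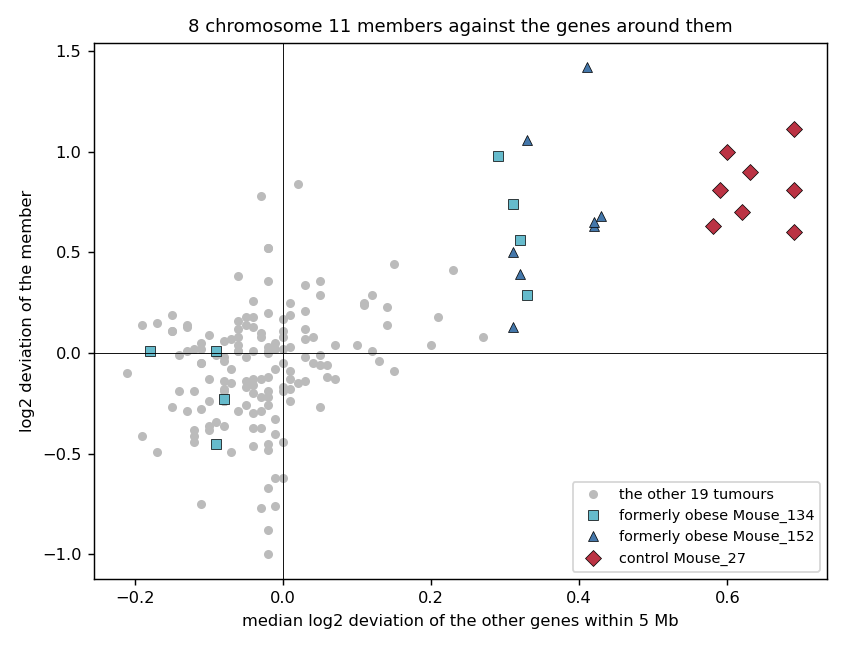
Log2 deviation of the 8 chromosome 11 members (vertical axis) against the median deviation of the other genes within 5 Mb (horizontal axis), a point for each member and tumour. All points of formerly obese Mouse_152 and control Mouse_27 lie to the upper right, with neighbours at 0.31 to 0.43 in Mouse_152 and 0.58 to 0.69 in Mouse_27, and the 19 tumours other than these and Mouse_134 lie between -0.21 and 0.27 on the horizontal axis.

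Some differences of chromosome 11 and chromosome 2 members were also computed without Mouse_27, Mouse_134 and Mouse_152. These 3 tumours were picked after the data had been seen, as tumours in which such members stood high. Smaller differences without them therefore follow from the choice, and the cause of the differences was not tested. Without Mouse_27, Mouse_134 and Mouse_152 the difference of formerly obese from obese tumours was 0.37 for Mrpl10, -0.02 for Mrpl12 and 0.07 for Mrps7, against 0.50, 0.46 and 0.28 with all tumours. The difference of obese from control tumours was -0.35 for Mrpl10 and -0.39 for Mrps26, against -0.52 and -0.56 with all tumours. The mean correlation between members was 0.066 without these 3 tumours, against 0.084 with them. None of these differences had passed the adjusted threshold with all tumours in the fit.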

How the data were processed

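RNA of 22 colon tumours was extracted with TRIzol, labelled with biotin and hybridised to Clariom S arrays, per the labels' protocols. The deposited values are read as log2 levels (3.34 to 19.49, with 2 decimals) of 22203 probe sets. Transcriptome Analysis Console 4.0 is named in the submitters' processing notes, and the sources used here give neither the background correction, normalization and summarization nor the log base. The number of arrays limits the precision. A gene symbol was paired with 19572 probe sets and none with 2631, from the platform's annotation.

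All arrays were fitted together as 4 group means with limma 3.58.1 (lmFit and eBayes, R 4.3.3), with 2-sided p-values adjusted by Benjamini and Hochberg over all probe sets and no covariate. The labels give no batch and pair no mice, and nothing in them says more of the replicates than their mouse numbers. The fit was also run on simulated data with changes larger than any member difference found here. That run therefore does not show whether differences of the size reported would be called. Descriptions were computed with Python 3.11.15 (pandas 2.3.3, numpy 2.4.6) and drawn with matplotlib 3.10.9. Correlations used levels with group means removed. The unadjusted counts and the intervals (95%) come from the same fit.

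Named members were the 5 with the smallest p in each direction of the main comparisons and 2 in the others, those at the ends of level, spread and correlation with the rest, and a fixed set with known roles. Members were not ranked by level, which probes of different genes do not allow. Named genes outside the list were the 10 most and 5 least like the members' mean and up to 2 per pathway list and comparison. The members and lists were chosen with earlier results of these data known. The comparison with neighbouring genes, its settings, the fits without 3 tumours and the marker and respiratory chain means without 1 tumour were chosen after seeing the data. Some genes of the pathway and cell type lists were not analysed here, and counts are over those measured. Alternatives were quantile or median scaling, a filter on dim probe sets, a trended or robust prior, array weights, only the groups compared, the mean of probe sets, and leaving out each mouse.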

Additional observations from a re-analysis of the deposited data

Results flagged for a closer look

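Of the 308 sets of levels of a member, or of the members' mean, in 1 group, 21 held a tumour farther from the others than Dixon's 95% limit allows, and chance flags about 1 in 20. In formerly obese tumours Mouse_134 was the lowest for Mrpl34 (9.93) and Mrps33 (10.96). In obese sulindac tumours Mouse_X was the lowest for Mrpl36 (6.17), Mouse_114 the lowest for Mrps18b (8.90) and Mouse_129 the highest for Mrps33 (11.93). In obese tumours Mouse_96 was the highest for Mrpl10 (10.17) and Mrps12 (8.35) and the lowest for Mrpl35 (10.15). Obese Mouse_113 was the lowest for Mrpl28 (7.09) and Mrpl34 (10.31) and the highest for Mrps14 (11.63).

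In control tumours Mouse_27 was the highest for Mrps7 (11.58) and Mrpl54 (6.96) and the lowest for Mrpl20 (11.65) and Mrpl55 (8.03). Control Mouse_20 was the lowest for Mrpl19 (10.48) and Mrps11 (11.53) and the highest for Mrps34 (11.03). Control Mouse_17 was the highest for Mrps17 (10.72), Mouse_26 the lowest for Mrpl51 (11.66) and Mouse_32 the lowest for Mrps35 (6.73). Mrps7 and Mrpl20 in Mouse_27 are among the values set beside neighbouring genes above.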

How the results depend on the processing

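By limma, 0 members were called in any of the 120 alternative fits made over the 6 comparisons together. The smallest adjusted p seen in them was 0.3777 (Mrpl38, obese sulindac against control without obese sulindac Mouse_114). It was sought only among members with the smallest p, or an unadjusted p under 0.05, in the main fit of each comparison. Under settings other than leaving out 1 mouse the median member difference ran from 0.012 to 0.081 for formerly obese against obese, 0.0492 to 0.0718 for obese sulindac against obese and -0.0743 to 0.004 for obese against control. Over mice left out in turn it ran from -0.004 to 0.066 for formerly obese against obese, 0.033 to 0.115 for obese sulindac against obese and -0.069 to 0.004 for obese against control. It took the other sign without Mouse_152 in the first of these and without Mouse_27 in the last (also without Mouse_27, Mouse_134 and Mouse_152). In the 3 other comparisons it changed sign under 6, 6 and 9 alternatives (formerly obese against control, obese sulindac against control, and obese sulindac against formerly obese). Single genes had been picked for a small p in the main fit, where none passed the threshold, so the count of their values is a weak check. Of 2076 values of single genes 2075 kept their direction and side of the threshold. The exception was Mrpl12 in formerly obese against obese, at -0.0187 without Mouse_27, Mouse_134 and Mouse_152, and the cause was not tested. The mean pair correlation ran from 0.0642 to 0.0907 with mice left out in turn. No paired analysis was possible because the groups share no mouse numbers.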
